A study of Homo sapiens with 4 samples.

Results

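The HOX genes were the 39 protein-coding genes whose symbols are HOXA, HOXB, HOXC or HOXD followed by a number from 1 to 13, out of 20176 protein-coding genes in GENCODE release 44 on GRCh37. They comprised 11 HOXA genes, 10 HOXB genes, 9 HOXC genes and 9 HOXD genes, with 110 annotated transcripts and 107 distinct transcription start sites (TSS). Native ChIP-Seq of H3K4me3 had been carried out in MDA-MB-231 cells, an established human triple negative breast cancer line, without crosslinking and on chromatin cut with micrococcal nuclease. The cells were untreated, treated with 1 µM Tat-SID or treated with 2.5 µM Tat-SID, and the Discussion of the study gives the treatment as 3 days. Tat-SID joins the SIN3 interaction domain of MAD to a Tat sequence that carries it into the nucleus, where it competes for the PAH2 domain of the SIN3 scaffold. Each condition had 1 H3K4me3 library, beside a single library of input DNA, and the comparison was with untreated cells rather than with a scrambled peptide. The question addressed to the HOX genes was whether their promoters were among those at which H3K4me3 fell with the peptide.

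HOX genes encode homeodomain transcription factors that specify position along the body axis of the embryo. Within each cluster the genes stand in the order in which they are used from head to tail, with low numbers toward the head, and genes of the same number in different clusters are paralogs. Trithorax group proteins, which include H3K4 methyltransferases, keep HOX genes active, and Polycomb group proteins keep them silent. H3K4me3 marks the promoters of active genes and is also found with the Polycomb mark H3K27me3 at many silent developmental genes.

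The authors called regions that differed between each treated library and the same untreated library with SICER-df. The lists used here held 141 regions with reduced H3K4me3 at 1 µM, 2063 at 2.5 µM, and 3 with increased H3K4me3 at 2.5 µM. Each list gives positions only, without reads, folds or error rates, and the depth of the libraries is unknown here. Since each condition had 1 library, replicate error could not be estimated and the conditions were compared without a test. A gene that lies outside the lists did not pass the threshold of the authors, which does not show that its H3K4me3 was unchanged, and the level of H3K4me3 at HOX genes before treatment was not measured in these lists. The identity of the cells could not be checked against markers for the same reason.

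No HOX gene had a region of reduced H3K4me3 within 3 kb of any of its TSS at 2.5 µM Tat-SID (0 of 39), where 10.8% of protein-coding genes did (2178 of 20176). At 1 µM the count was again 0 of 39, where 0.674% of protein-coding genes were reduced (136 of 20176). By cluster, 0 of 11 HOXA, 0 of 10 HOXB, 0 of 9 HOXC and 0 of 9 HOXD genes were reduced at either dose, and no region of any list lay inside the span of a cluster. The share among all protein-coding genes at 2.5 µM was 9.97% on chromosome 7, which carries HOXA, and 7.06% on chromosome 17, which carries HOXB. It was 12.7% on chromosome 12, which carries HOXC, and 13.6% on chromosome 2, which carries HOXD. Neighbouring HOX genes share one stretch of chromosome, so the 39 genes amount to 4 loci rather than to separate observations. Both doses were set against the same untreated library, so the 2 counts are not independent of each other.

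The sequences just upstream of the TSS show what kind of promoter was being compared. For the HOX gene nearest to a reduced region in HOXA, HOXB and HOXD, and for genes whose start lay in a flanking region and for which at least 50 bases could be shown, up to 150 bases before the canonical TSS are given 5′ to 3′ on the strand of the gene, from GRCh37. Capitals mark CCAAT, or ATTGG where it lies on the other strand. The windows are chr7:27239711-27239860 (minus strand) for HOXA13 and chr7:27702503-27702652 (minus) for HIBADH, which encodes a mitochondrial enzyme of valine breakdown. For HOXB1 the window is chr17:46608374-46608523 (minus). For CBX5, which encodes the heterochromatin protein HP1 alpha, the window is chr12:54673907-54673976 (minus). They are chr2:177053246-177053395 (plus) for HOXD1 and chr2:177502504-177502653 (minus) for the long non-coding RNA gene LINC01116.
HOXA13: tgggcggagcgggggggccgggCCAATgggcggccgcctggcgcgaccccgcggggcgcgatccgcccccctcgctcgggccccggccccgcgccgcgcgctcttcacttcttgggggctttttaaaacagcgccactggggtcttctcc
HIBADH: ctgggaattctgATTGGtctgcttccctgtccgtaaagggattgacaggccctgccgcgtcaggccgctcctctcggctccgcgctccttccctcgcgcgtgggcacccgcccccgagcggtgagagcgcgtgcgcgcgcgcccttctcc
HOXB1: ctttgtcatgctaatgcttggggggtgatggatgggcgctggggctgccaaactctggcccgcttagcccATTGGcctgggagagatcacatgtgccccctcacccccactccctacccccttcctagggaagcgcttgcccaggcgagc
CBX5: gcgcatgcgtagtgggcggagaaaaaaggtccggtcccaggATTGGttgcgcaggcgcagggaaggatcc
HOXD1: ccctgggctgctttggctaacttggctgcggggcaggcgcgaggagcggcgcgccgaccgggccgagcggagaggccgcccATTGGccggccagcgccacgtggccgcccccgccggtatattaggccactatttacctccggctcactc
LINC01116: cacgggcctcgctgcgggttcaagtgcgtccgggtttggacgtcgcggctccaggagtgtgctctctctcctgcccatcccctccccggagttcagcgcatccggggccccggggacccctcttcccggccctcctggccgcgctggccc

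HOXA13 had 21 CpG dinucleotides in its 150 bases and HOXD1 had 18, beside 19 for HIBADH and 15 for LINC01116. The first pair lay outside the lists and the second pair in regions of reduced H3K4me3. These sequences are examples, and a link between CpG content and the calls was not tested on them. HOXB1 with 4 was sparser in CpG. CBX5, a reduced gene, had 6 CpG in its 70 bases. A CCAAT motif stood upstream of each of the 3 HOX genes shown and also upstream of the reduced genes HIBADH and CBX5, and LINC01116 had none.

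The HOXA cluster spans 107 kb of chromosome 7 and contained no region of any list. At 2.5 µM the nearest region on the side of HOXA13 was chr7:27700551-27704349, 3799 bp long and 461 kb from the cluster, over the start of HIBADH. On the opposite side the nearest was chr7:26234801-26246599, 11799 bp long and 886 kb away, over the start shared by CBX3, which encodes HP1 gamma, and HNRNPA2B1, which encodes an RNA-binding protein of the splicing machinery. This last region was also listed at 1 µM. Distances to the nearest 2.5 µM region fell along the cluster, from 558 kb for HOXA2 to 476 kb for HOXA11 and 461 kb for HOXA13. The genes between them were at 508 kb (HOXA3), 530 kb (HOXA4), 517 kb (HOXA5), 510 kb (HOXA6), 503 kb (HOXA7), 486 kb (HOXA9) and 481 kb (HOXA10). HOXA3 departs from the order because the most upstream of its 6 transcripts starts closer to HIBADH. At 1 µM HOXA2 lay 896 kb and HOXA13 989 kb from the nearest region.

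The HOXB cluster spans 200 kb, chr17:46605888-46806112, and lay farthest from any reduced region at 2.5 µM. The flanking regions were chr17:45399751-45402899, 3149 bp long and 1203 kb below the cluster at the start of EFCAB13, and chr17:48132001-48140949, 8949 bp long and 1326 kb above it at the start of ITGA3, the integrin alpha 3 subunit. The distances were 1205 kb for HOXB1, 1218 kb for HOXB2, 1228 kb for HOXB3, 1253 kb for HOXB4, 1268 kb for HOXB5 and 1272 kb for HOXB6. HOXB7 lay at 1283 kb, HOXB8 at 1288 kb, HOXB9 at 1301 kb and HOXB13, a gene expressed in prostate and distal gut, at 1326 kb. All 10 thus stood more than 1 Mb from a reduced region. At 1 µM the distances were 11.1 to 11.3 Mb. An increased region at 2.5 µM was on the same chromosome, 24.3 Mb from HOXB1.

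The HOXC cluster spans 117 kb, chr12:54332615-54449814, and was the closest of the 4 to reduced regions. On the side of HOXC4, chr12:54671451-54678649, 7199 bp long, lay 222 kb from the cluster over the starts of CBX5 and HNRNPA1, an RNA-binding protein that regulates splicing. On the side of HOXC13, chr12:54017051-54020999, 3949 bp long, lay 312 kb away over the start of ATF7, a transcription factor of the leucine zipper class. HOXC4 was at 224 kb, the shortest distance of any HOX gene, followed by HOXC5 at 245 kb and HOXC6 at 249 kb. HOXC8 was at 269 kb, HOXC9 at 278 kb, HOXC10 at 291 kb, HOXC11 at 305 kb, HOXC12 at 323 kb and HOXC13 at 312 kb. HOXC12 was therefore near the middle of the gap between the 2 regions, and HOXC13 was closer to the ATF7 side. From its gene start alone, HOXC4 was at 261 kb, since the others of its 3 transcripts start closer to CBX5. At 1 µM the nearest region was 8205 kb from HOXC13 and 8300 kb from HOXC5, the shortest and the longest distance in this cluster.

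The HOXD cluster spans 98.2 kb, chr2:176957449-177055635. On the side of HOXD1 the nearest region at 2.5 µM was chr2:177499051-177505799, 6749 bp long and 443 kb away, at the start of LINC01116. On the side of HOXD13 it was chr2:176030851-176034199, 3349 bp long and 923 kb away, over the start of ATF2, a stress-activated transcription factor. Distances rose with the gene number, from 446 kb for HOXD1, 470 kb for HOXD3 and 483 kb for HOXD4 to 504 kb for HOXD8, 512 kb for HOXD9 and 518 kb for HOXD10. HOXD11 was at 527 kb, HOXD12 at 535 kb and HOXD13 at 542 kb. At 1 µM the distances were 11.4 to 11.5 Mb.

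**Figure D1:**
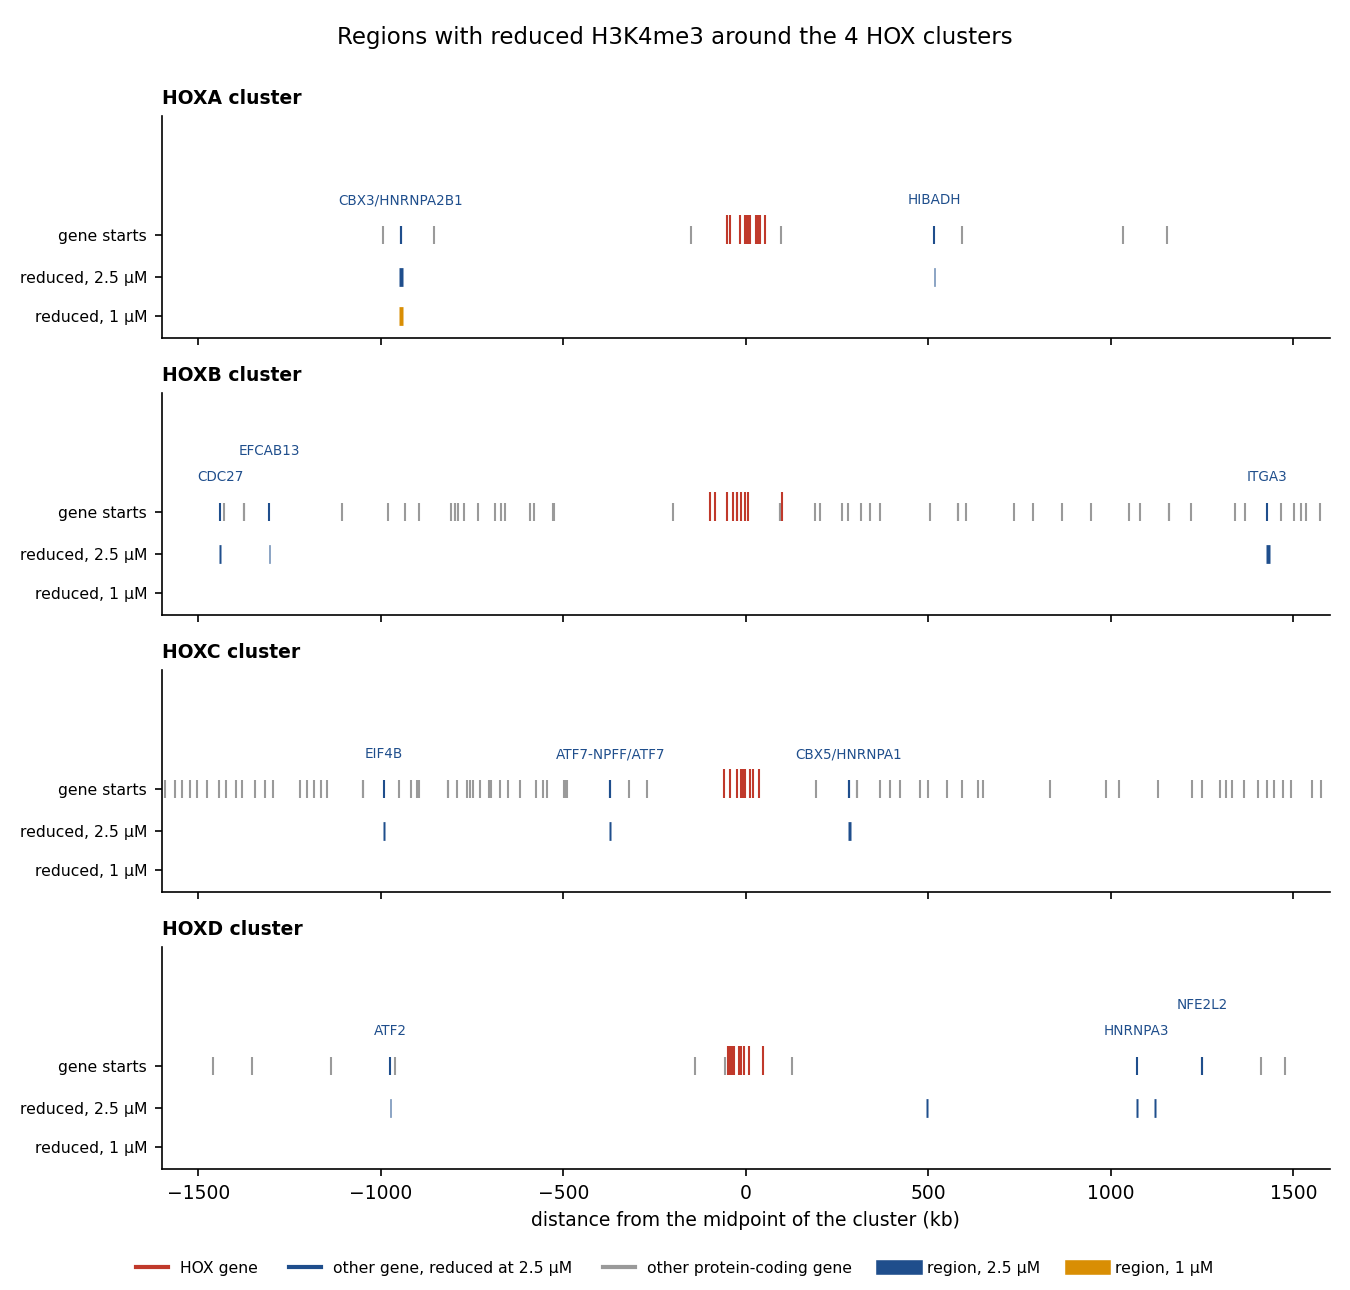
Gene starts (upper ticks) and regions of reduced H3K4me3 at 2.5 µM and 1 µM Tat-SID (lower ticks) around the midpoint of each HOX cluster, in kb. HOX genes are red, other protein-coding genes reduced at 2.5 µM are blue and named, and no region lies between or beside the red ticks.

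Across all 39 HOX genes the distance from any TSS to the nearest region reduced at 2.5 µM had a median of 510 kb and ran from 224 kb to 1326 kb. The median over 20098 protein-coding genes on chromosomes with a region was 380 kb, with quartiles of 106 kb and 1000 kb, and over 72 other homeobox genes it was 460 kb. The 39 HOX distances were set by 6 flanking regions only, as the genes of a cluster share their neighbours. Within 200 kb of a TSS a reduced region was found for 0 of 39 HOX genes, for 29.2% of the other homeobox genes and for 35.4% of all protein-coding genes. Within 500 kb the shares were 41.0%, 52.8% and 56.5%, and within 1000 kb they were 74.4%, 80.6% and 74.7%. The HOX share was thus below that of all protein-coding genes at 200 kb and 500 kb and within 1 percentage point of it at 1000 kb. At 1 µM the HOX median was 8300 kb, beside 7948 kb for the 17041 protein-coding genes on a chromosome with a region.

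**Figure D2:**
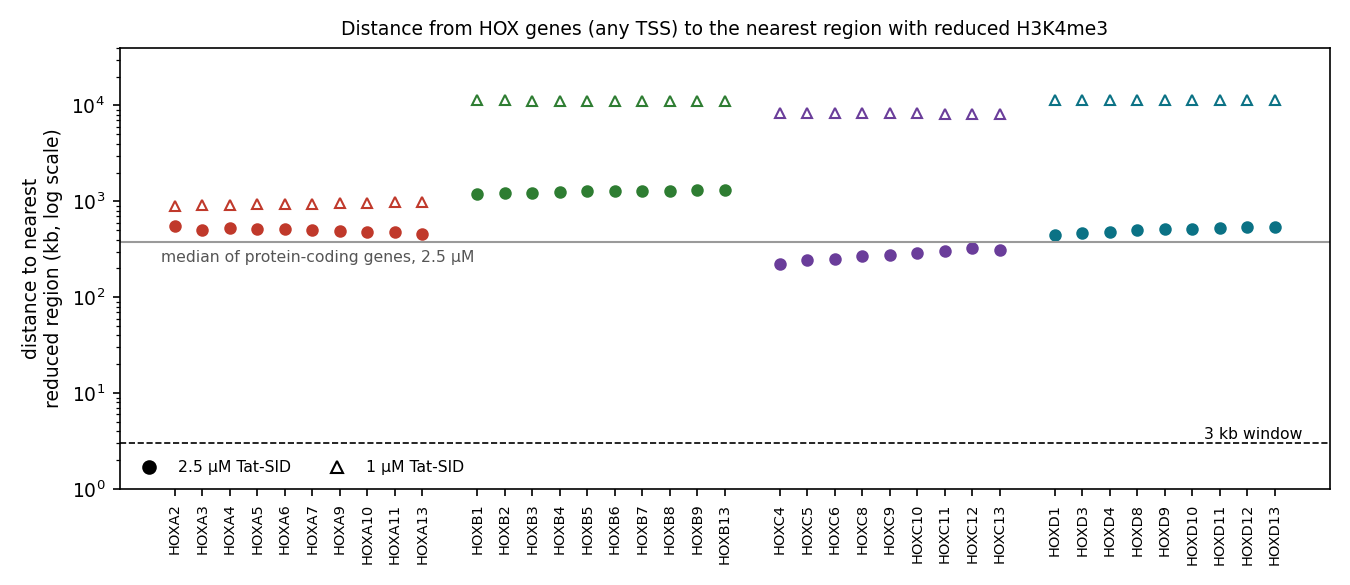
Distance in kb, on a log axis, from any TSS of the HOX genes named in the text to the nearest region of reduced H3K4me3 at 2.5 µM (filled circles) and 1 µM Tat-SID (open triangles), by cluster. All points lie above the dashed 3 kb window, from 224 kb upward at 2.5 µM, and only the HOXC genes lie below the median of protein-coding genes (grey line, 380 kb).

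Ranked among all gaps, the stretches without a reduced region that held the clusters were of middling to large size. A long gap is more likely than a short one to hold any given gene. These ranks therefore do not show that the gaps were unusual. Between neighbouring 2.5 µM regions on a chromosome there were 2040 gaps, with a median of 708 kb, a 90th percentile of 3.32 Mb and a largest gap of 22.9 Mb. The gap around HOXB was 2.73 Mb, the 290th longest, and held 52 protein-coding starts, 42 of them other than HOX genes. The gaps around HOXD (1.46 Mb, the 622nd) and HOXA (1.45 Mb, the 625th) each held 4 other protein-coding starts. The gap around HOXC was 0.650 Mb, shorter than the median gap, and ranked the 1059th. Runs of successive protein-coding genes without a reduced region were 15 genes long at HOXA, 52 at HOXB, 13 at HOXC and 13 at HOXD. Counted over the 17998 genes that were not reduced, the median gene stood in a run of 28.0 genes, the 75th percentile was 63.0 and the longest run was 244. Only the run at HOXB was longer than that median.

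The other genes of the clusters were not in the lists either. Of 43 other genes that overlapped the spans of the 4 clusters, 28 were long non-coding RNA genes, 7 were microRNA genes, 4 were protein-coding, 3 were pseudogenes and 1 was unclassified, and 0 of 43 were reduced at either dose. The background at 2.5 µM was 4.90% for long non-coding RNA genes and 2.26% for microRNA genes. HOTAIR, a HOXC transcript known for binding Polycomb proteins and for its link to breast cancer metastasis, lay 303 kb from the nearest 2.5 µM region. HOTTIP, which is transcribed beside HOXA13 and binds WDR5, lay at 459 kb, and HOTAIRM1 lay at 561 kb. HAGLR beside HOXD1 lay at 445 kb and HOXB-AS1 at 1218 kb.

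The microRNAs of the clusters were described whatever their call, because several of them repress HOX transcripts. MIR196B (HOXA) lay 491 kb, MIR196A1 (HOXB) 1307 kb, MIR196A2 (HOXC) 286 kb, MIR615 (HOXC) 244 kb and MIR10B (HOXD) 484 kb from the nearest region reduced at 2.5 µM. MIR615 was the closest of the 43 genes and lies within the transcribed span of HOXC5. The mature sequences, from RefSeq on GRCh38.p14 and with the seed (bases 2 to 8) in capitals, show that the miR-196 genes of 3 clusters share 1 seed, while miR-615-3p has another.
hsa-miR-196a-5p: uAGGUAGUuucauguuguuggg
hsa-miR-196b-5p: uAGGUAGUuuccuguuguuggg
hsa-miR-615-3p: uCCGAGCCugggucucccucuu

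The protein-coding genes nearest to the clusters on either side were not reduced. SKAP2 and EVX1 beside HOXA lay 535 kb and 414 kb from the nearest 2.5 µM region, and SKAP1 and TTLL6 beside HOXB lay 812 kb and 1237 kb away. CALCOCO1 and SMUG1, a DNA repair glycosylase, beside HOXC lay at 87.4 kb and 88.7 kb. EVX2, a homeobox gene next to HOXD13, lay at 550 kb and MTX2 at 365 kb. Within 250 kb of the clusters, 0 of 3 other protein-coding genes were reduced at HOXA, 0 of 9 at HOXB, 2 of 7 at HOXC and 0 of 3 at HOXD. Within 1 Mb the counts were 3 of 10 at HOXA (CBX3, HNRNPA2B1 and HIBADH), 0 of 36 at HOXB, 5 of 47 at HOXC (EIF4B, ATF7-NPFF, ATF7, CBX5 and HNRNPA1) and 1 of 5 at HOXD (ATF2). These counts stand beside the shares of 7.06% to 13.6% over all protein-coding genes of the same chromosomes. At 1 µM only CBX3 and HNRNPA2B1 were reduced among these genes, by the region over their shared start.

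Several genes reduced beside different clusters were relatives of each other. As background, the HOX clusters lie in chromosome segments that were duplicated together early in vertebrate evolution. After these values had been seen, 12 families with members on the chromosomes of more than 1 cluster were put together by hand, with 40 genes in all, of which 12 were reduced at 2.5 µM and 2 at 1 µM. By cluster the counts at 2.5 µM were 5 of 11 at HOXA, 0 of 11 at HOXB, 3 of 9 at HOXC and 4 of 9 at HOXD. The 11 at HOXB all lay in the gap around that cluster, which fixed their count. How far the chosen genes lay from the cluster also differed between clusters. The selection is not a complete account of duplicated families. Since the families were chosen with the calls known, these counts are a description and are not read against the background of 10.8%. Of the 3 genes for HP1 proteins, which bind methylated H3K9, CBX3 (0.892 Mb from HOXA) and CBX5 (0.224 Mb from HOXC) were reduced, and CBX1 (0.427 Mb from HOXB) lay 775 kb from the nearest region. The HNRNP A/B genes in this selection, HNRNPA2B1, HNRNPA1 and HNRNPA3, were all reduced, and other genes of that family were not looked at. HNRNPA2B1 was called by the same region as CBX3, and HNRNPA1 by the same region as CBX5. The calls in these families are therefore not separate, and the reduced genes outnumber the regions behind them. The region at HNRNPA3 was chr2:178074901-178080899, 5999 bp long and at a gene 1.02 Mb from HOXD.

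Of the ATF2-like factors, ATF7 (0.312 Mb from HOXC) and ATF2 (0.924 Mb from HOXD) were reduced and CREB5 (1.10 Mb from HOXA) was not. NFE2L2, the oxidative stress regulator NRF2, was reduced 1.20 Mb from HOXD, by a region of 5649 bp, whereas NFE2, NFE2L1 and NFE2L3 were not. NFE2 and NFE2L3 lay 10.9 kb and 11.1 kb from a reduced region, outside the 3 kb window. Of the SP factors, which bind GC-rich promoters, SP3 was reduced 2.13 Mb from HOXD, by a region of 5599 bp, and the other 8 were not, SP6 (0.673 Mb from HOXB), SP7 (0.594 Mb from HOXC) and SP9 (1.76 Mb from HOXD) included. SCRN1, OSBPL3 and IGF2BP3 were reduced on the HOXA chromosome, 2.79 Mb, 2.11 Mb and 3.62 Mb from the cluster, and their relatives on chromosomes 17 and 2 were not. The SKAP, CALCOCO, COPZ and ATP synthase c subunit families held no reduced gene, and ATP5MC3 beside HOXD lay 12.2 kb from the ATF2 region. No family member beside HOXB was reduced. The members there lay within 0.707 Mb of the cluster (OSBPL7), inside the gap around HOXB, so this count was fixed by that gap. Reduced members beside HOXA lay as far as 3.62 Mb away (IGF2BP3).

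**Figure D3:**
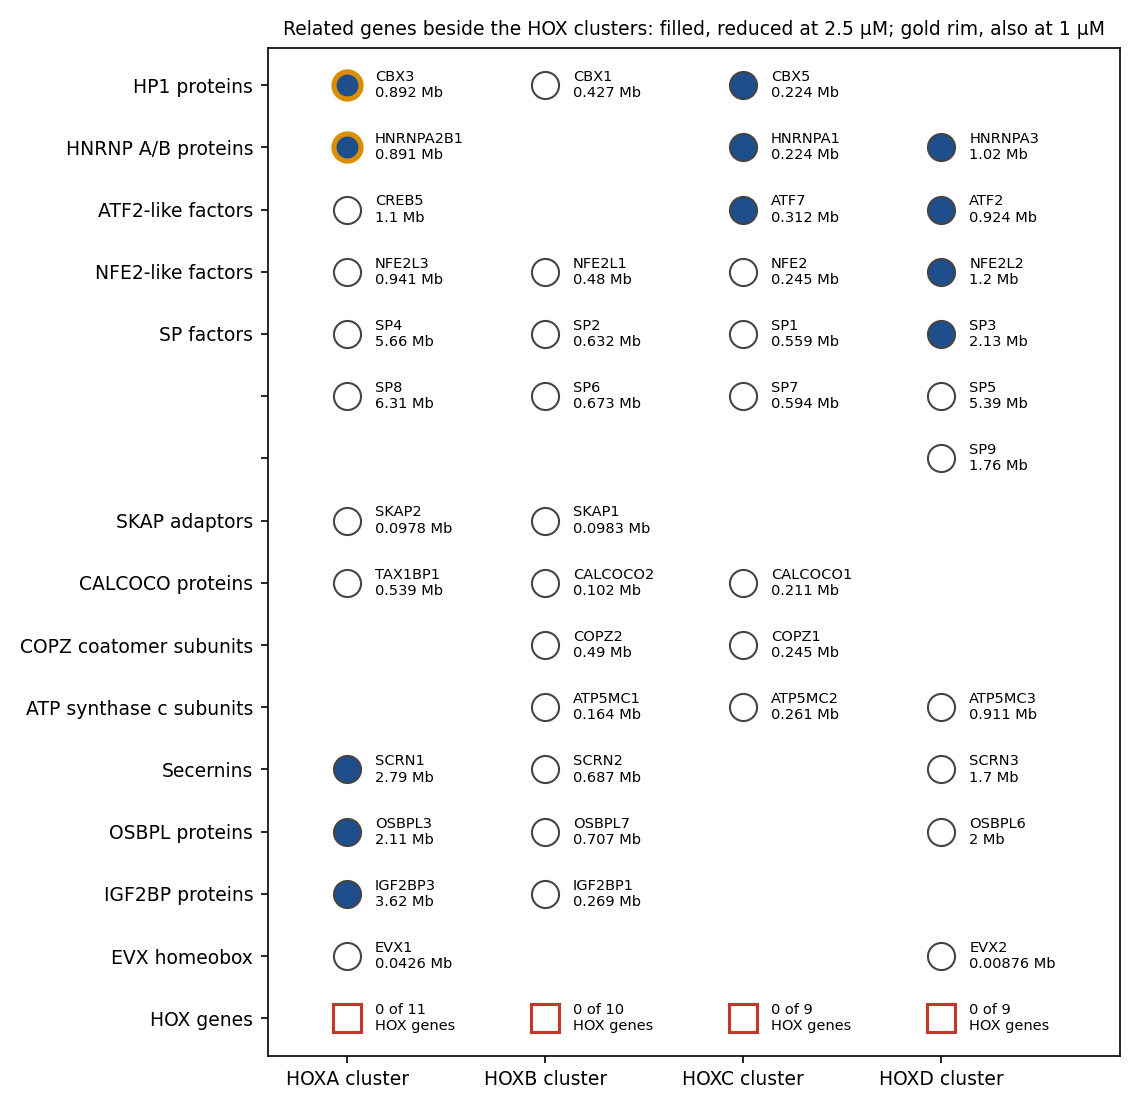
Members of related gene families beside each HOX cluster, with their distance from it in Mb. Filled circles had a region of reduced H3K4me3 within 3 kb of a TSS at 2.5 µM Tat-SID. Gold rims mark the 2 also reduced at 1 µM, both by the same region, and the squares give the 0 HOX genes reduced per cluster. The EVX pair is shown with the 12 families and is not counted among their 40 genes.

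At the median, HOX promoters were higher in GC content and lower in CpG ratio than reduced promoters, and the difference was not tested. Over 1 kb on each side of the gene start, the 39 HOX genes had a median GC content of 58.6%, from 50.6% (HOXB2) to 67.9% (HOXA13), beside 55.0% for 20152 protein-coding genes and 54.0% for the 2178 reduced genes. The ratio of observed to expected CpG had a median of 0.654 for the HOX genes, from 0.372 (HOXB1) to 0.955 (HOXD8), beside 0.612 for all and 0.727 for reduced genes. Taking promoters above 50% GC and above a CpG ratio of 0.6 as CpG promoters, 24 of 39 HOX genes qualified (61.5%), beside 46.8% of all and 64.2% of reduced genes. By cluster these were 7 of 11 HOXA, 5 of 10 HOXB, 5 of 9 HOXC and 7 of 9 HOXD genes. Among all protein-coding genes, 14.8% of those with CpG promoters and 7.27% of the others were reduced at 2.5 µM. Composition was measured at the gene start, whereas a gene counted as reduced by a region at any TSS. For genes called at another TSS, such as EED, the composition is not that of the called promoter. With gene starts only, 9.50% of protein-coding genes were reduced rather than 10.8%. The HOX genes fell in 4 classes of GC content, in which 13.0% (50% to 55%, 12 HOX genes), 11.7% (55% to 60%, 13 HOX genes), 9.85% (60% to 65%, 10 HOX genes) and 6.45% (65% to 70%, 4 HOX genes) of protein-coding genes were reduced.

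**Figure D4:**
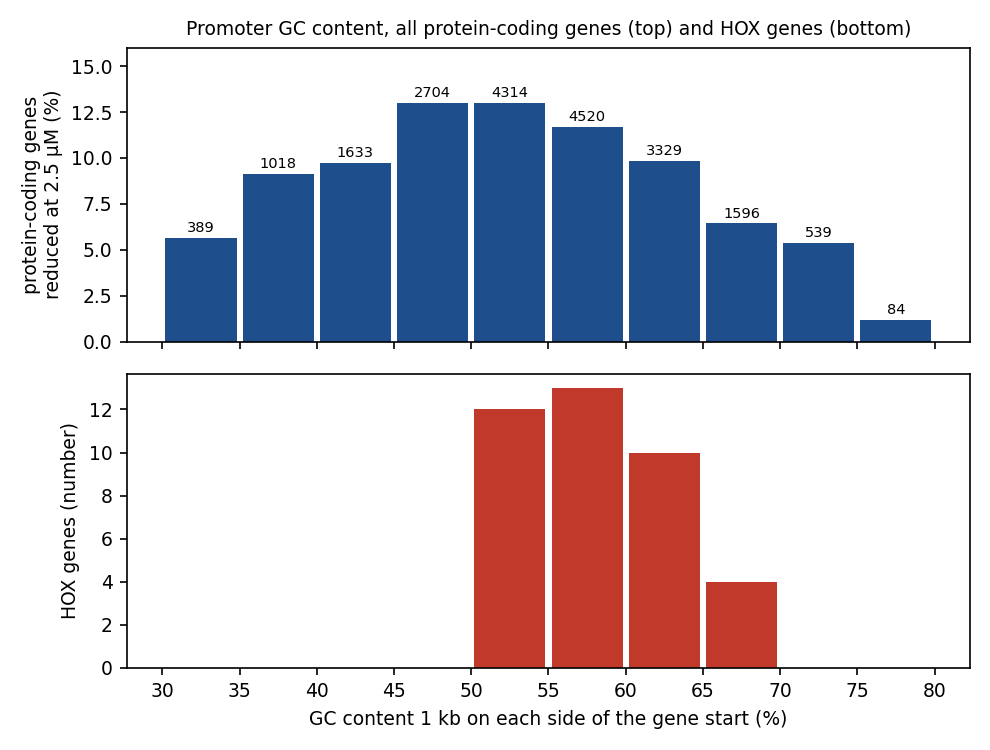
Upper bars give the share of protein-coding genes reduced at 2.5 µM Tat-SID (%) by GC content around the gene start, with the number of genes above each bar. Reduced genes were called at any TSS. Lower bars give the number of HOX genes in the same classes. The 39 HOX genes lie between 50% and 70% GC, where 6.45% to 13.0% of all protein-coding genes were reduced.

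A sequence feature that the choice of genes did not use was the CCAAT box, a promoter element bound by NF-Y. In the 300 bases from 250 before to 50 from the canonical TSS on, CCAAT was found on either strand for 29 of 39 HOX genes (74.4%), beside 36.0% of 19875 protein-coding genes, 34.4% of those with CpG promoters, 39.2% of the reduced genes and 63.9% of the 72 other homeobox genes. It was present in 9 of 11 HOXA, 7 of 10 HOXB, 6 of 9 HOXC and 7 of 9 HOXD promoters. The 10 HOX genes without it were HOXA5, HOXA11, HOXB3, HOXB5, HOXB8, HOXC5, HOXC8, HOXC13, HOXD8 and HOXD11. TATAAA, the core of the TATA box, was found for 7 of 39 HOX genes (17.9%), beside 9.63% of protein-coding genes and 8.15% of reduced genes. The share was 4.55% for genes with CpG promoters and 9.72% for the other homeobox genes. The 7 HOX genes were HOXA3, HOXA9, HOXA10, HOXB2, HOXB7, HOXC5 and HOXD13. Paralogous HOX genes are not separate observations. Both motifs were searched independently of each other, and a match describes the sequence and does not show binding. They were sought at the canonical TSS, whereas reduced genes were called at any TSS.

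Genes whose products act with or on HOX proteins were reduced in part at 2.5 µM. Of 9 genes for HOX partners, which bind DNA together with HOX proteins (PBX, MEIS and PKNOX), 2 were reduced (22.2%, beside 10.8% of protein-coding genes) and 0 at 1 µM. PBX2 was one of them, with a region of 8799 bp, chr6:32156201-32164999, over its start. PBX3 lay at 503 kb and MEIS1 at 887 kb from the nearest region. With lists this short, 1 gene moves the share by several percentage points.

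Of 25 trithorax and Polycomb genes that maintain HOX expression states, 5 were reduced at 2.5 µM (20.0%, beside 10.8% of protein-coding genes) and 1 at 1 µM (beside 0.674%). EED and SUZ12 encode core subunits of the H3K27 methyltransferase complex PRC2, and JARID2 encodes a PRC2 cofactor. SUZ12 had a region of 3749 bp, chr17:30263101-30266849, and JARID2 one of 6049 bp, chr6:15244401-15250449, each over the gene start. At EED a region of 4699 bp, chr11:85954701-85959399, lay at a TSS downstream of the gene start. BMI1 and PHC2 encode subunits of PRC1, which ubiquitinates H2A. The BMI1 region, chr10:22602951-22616249, was the longest at 13299 bp, and BMI1 was the only one of the 25 also reduced at 1 µM. The PHC2 region, chr1:33808201-33817049, was 8849 bp long and lay at an internal TSS.

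The H3K4 methyltransferase genes of the list and their cofactors were not reduced, with KMT2A 51.4 kb, KMT2B 753 kb, MEN1 500 kb, ASH2L 37.6 kb and WDR5 3286 kb from the nearest region at 2.5 µM. The list held KMT2A and KMT2B of this class, and KMT2C, which was looked up after the values were seen, was reduced at 2.5 µM. Where 10.8% of protein-coding genes are reduced, a group this small can readily hold none. A contrast with the Polycomb genes was not tested. EZH2, the catalytic subunit of PRC2, lay at 55.5 kb. CTCF, which divides HOX clusters into domains, lay at 457 kb. Counted from gene starts alone, 3 of the 25 remained reduced, since EED and PHC2 were called at other TSS. On that count 9.50% of protein-coding genes were reduced.

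Of 72 other homeobox genes, 5 were reduced at 2.5 µM (6.94%, beside 10.8% of protein-coding genes) and 0 at 1 µM (beside 0.674%). IRX5, a patterning factor of the Iroquois class, had the longest region, chr16:54959951-54972599, of 12649 bp, while IRX3 and IRX6 on the same chromosome were not reduced. ZEB2, a repressor of E-cadherin, had a region of 4999 bp, chr2:145273851-145278849, and PITX1, a hindlimb factor, one of 5099 bp, chr5:134365951-134371049. TGIF1, a repressor of TGF-beta signalling, had a region of 9949 bp, chr18:3446201-3456149, at a TSS other than the gene start. With gene starts alone 3 of the 72 genes were reduced, beside 9.50% of protein-coding genes. The clustered DLX genes, which like HOX genes are patterning factors, were not reduced (DLX1 169 kb, DLX3 59.4 kb and DLX5 2084 kb from the nearest region).

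**Figure D5:**
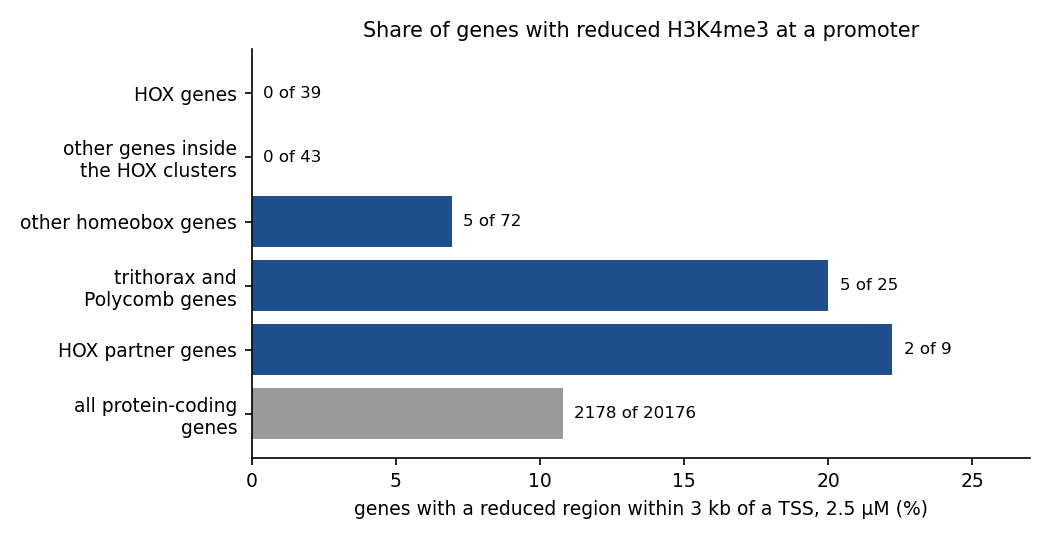
Share of genes (%) with a region of reduced H3K4me3 within 3 kb of a TSS at 2.5 µM Tat-SID, with the number reduced of the number listed beside each bar. HOX genes (0 of 39) and the other genes of their clusters (0 of 43) have no bar, and all protein-coding genes stand at 10.8% (grey). That share is not the background of the 43 genes, of which only 4 are protein-coding. Of the rest, 28 are long non-coding RNA genes (background 4.90%) and 7 are microRNA genes (background 2.26%). Each bar is 1 comparison of 1 treated with 1 untreated library, so there is no error bar.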

How the data were processed

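Native H3K4me3 ChIP-Seq reads (Bowtie 1.0.0 and FastQC 0.10.0 per the submitters' processing notes, hg19) were compared by the authors with SICER-df, and the deposited lists hold region positions and no read counts or other values. The direction of change and the threshold of 1e-15 stand in the names of the lists and in the results text of the study, and its methods give 1e-08. Duplicate handling is not given in the sources used here.

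Genes were taken from GENCODE release 44 on GRCh37 and counted as reduced when a region lay within 3 kb of any transcript TSS. Counts are descriptions without a test, and depth is unknown here. All HOX genes, the called members of each list up to 10 a list, the MIR10, MIR196 and MIR615 families and the nearest flanking genes were named. Other genes were named after their values were seen. The members and lists were chosen with earlier results of these data known. Alternatives changed the TSS set, the window, the region length and merging. Of the steps, only the call of genes by TSS window was tested on planted regions. The software was Python 3.11.15, numpy 2.4.6, scipy 1.17.1 and matplotlib 3.10.9. Increased regions at 1 µM were not analysed here, and MIR10A was not in the annotation used. A few genes that enter the counts, and the promoter sequence of another, are not reported here.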

Additional observations from a re-analysis of the deposited data

How the results depend on the processing

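The count of HOX genes with reduced H3K4me3 was 0 at both doses under all 7 alternatives, in each cluster too. The alternatives reached at most 10 kb, while the nearest 2.5 µM region lay 224 kb from any HOX TSS. At 1 µM the nearest region lay farther still. These counts of 0 were therefore fixed by the distances and are no measure of robustness. The share of protein-coding genes at 2.5 µM was 10.8% and moved to 9.50% with gene starts only and to 11.6% with a window of 10 kb. At 1 µM it was 0.674% and moved to 0.496% with gene starts only. Fewer TSS, or a wider window, enter these alternatives by construction. A count is said to have stayed within 1.5 times its first value, and a share within its exact 95% binomial interval. By this measure 60 values stayed over these alternatives and those 3 moved. Most of the 60 were the HOX counts of 0, which could not move. Among values added after the data were seen, 36 stayed and 2 moved, the trithorax and Polycomb genes (from 5 to 3) and the other homeobox genes (from 5 to 3), both with gene starts only. No stricter threshold could be applied to lists of positions. No paired analysis was possible because there was 1 library per condition. The depth behind a call is unknown here.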
